A study of Homo sapiens with 6 samples.

Results

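The genes described here are the hypoxia-inducible factors, the enzymes and the ubiquitin ligase subunit that control them, and 5 of their targets, measured on Affymetrix arrays of HCT116 cells, a human colorectal carcinoma line. They are HIF1A, EPAS1, EGLN1, EGLN3, VHL, ADM, ANKRD37, P4HA1, CA9 and VEGFA, chosen by name, with each of their probe sets that the platform annotation assigns to a single gene. Of the 10 genes, 9 had such probe sets, 34 in all, out of 18132 genes and 44988 single-gene probe sets in the table. CA9 had none in the annotation used here and has no value below. The series holds 3 arrays of cells labelled Ctrl (treatment: control) and 3 of cells labelled CSF3, the gene of granulocyte colony-stimulating factor. Both groups are labelled with colon as the tissue and were grown in RPMI-1640 medium with fetal bovine serum and antibiotics, and the labels name no hypoxia treatment for either. Whether CSF3 was added as a protein or expressed from a vector, and whether the 3 samples of a group were separate cultures, is not in the labels, so p-values refer to the scatter of these 6 samples alone, which could be technical.

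In cells with enough oxygen, the prolyl hydroxylases encoded by EGLN1 and EGLN3 mark the HIF-α proteins, which the VHL ubiquitin ligase then recognises and sends to the proteasome. When oxygen falls, HIF-1α (HIF1A) and HIF-2α (EPAS1) escape this mark, pair with ARNT and bind short DNA elements near their target genes. The pathway therefore acts mainly on protein stability, which an RNA array does not measure. Colorectal tumours often contain oxygen-poor regions, and VEGFA and CA9 are among the targets best known there.

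The targets split in direction on the CSF3 arrays. ADM, VEGFA and ANKRD37 rose on their brightest probe sets, by 1.11 ± 0.06, 0.40 ± 0.07 and 0.61 ± 0.06 on the log2 scale (± SE, 3 arrays against 3), whereas P4HA1 fell by 0.78 ± 0.06. Of the genes that control the pathway, EGLN1 fell on its brightest probe set, by 0.57 ± 0.09. HIF1A fell on 7 of its 8 probe sets, and on 5 after quantile and 7 after cyclic loess normalization of the arrays. The brightest HIF1A probe set was not called after either, with changes of -0.0076 and 0.014. No call of EPAS1, EGLN3 or VHL held under quantile or cyclic loess normalization. Counted with 1 probe set a gene, 3 of the 9 genes rose and 4 fell, while 2 missed the threshold (limma, Benjamini-Hochberg adjusted p under 0.05), where 45.4% of all genes rose and 27.1% fell. Counted by probe set, 17 of 34 rose and 11 fell, against 36.7% and 28.8% of all single-gene probe sets. The share that was called, in either direction, was thus 72.5% of all genes, and the number of members called is no result of its own.

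**Figure D1:**
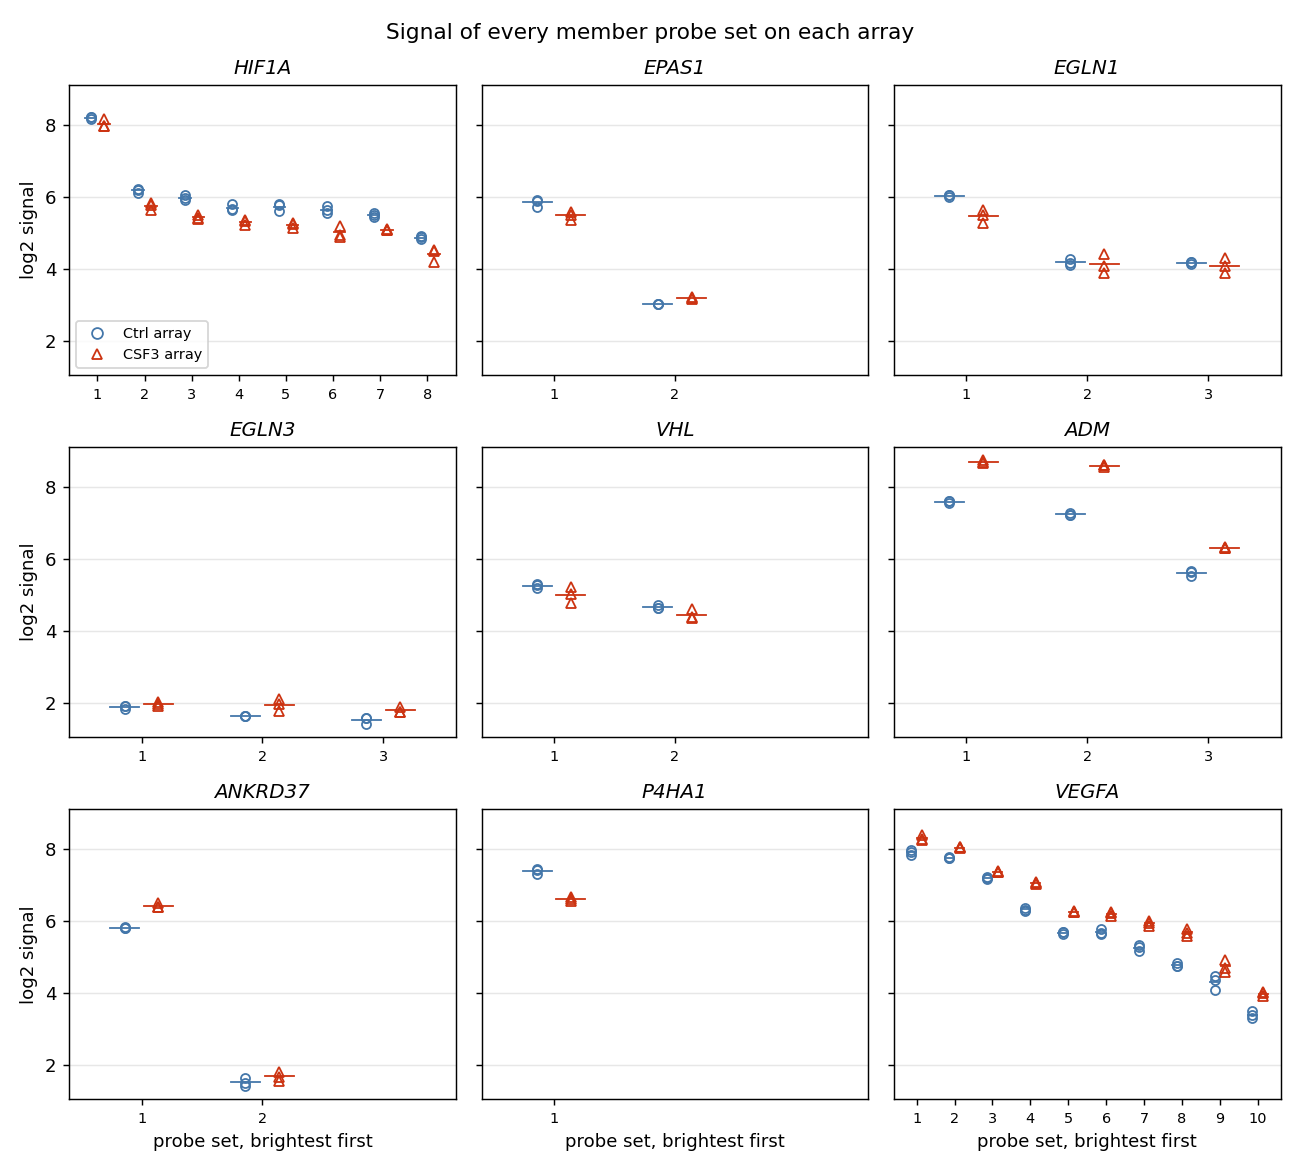
Deposited log2 signal (vertical axis) of the 34 probe sets of the 9 measured genes on each of 3 Ctrl arrays (blue circles) and 3 CSF3 arrays (red triangles), with probe sets ordered from brightest to dimmest along the horizontal axis of each panel and short lines at the group means. The CSF3 arrays lie above the Ctrl arrays on the 3 probe sets of ADM and the 10 of VEGFA, and below them on the 8 of HIF1A and the single one of P4HA1. Over all single-gene probe sets, they lie above on 39.8% and below on 30.9%.

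Promoters are shown for the 4 genes with a promoter window in the sequences used here whose call held under each scaling, since HIF acts through a short DNA element. The call of VEGFA also held, but it had no window. The sequences below are the 250 bases before the annotated start of transcription, read 5′ to 3′ on the gene's strand, from RefSeq on GRCh38.p14. Capitals mark the core of a hypoxia response element, searched as ACGTG or GCGTG on both strands, so that CACGT and CACGC mark a core on the opposite strand. ADM lies on the forward strand of chromosome 11 (window 10304823 to 10305072), ANKRD37 on the forward strand of chromosome 4 (window 185396591 to 185396840), EGLN1 on the reverse strand of chromosome 1 (window 231422288 to 231422537) and P4HA1 on the reverse strand of chromosome 10 (window 73096867 to 73097116).
ADM: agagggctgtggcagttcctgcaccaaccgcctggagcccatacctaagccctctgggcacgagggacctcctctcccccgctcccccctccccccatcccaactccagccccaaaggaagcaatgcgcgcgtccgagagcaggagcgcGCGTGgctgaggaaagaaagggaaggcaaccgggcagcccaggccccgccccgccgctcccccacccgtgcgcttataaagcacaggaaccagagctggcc
ANKRD37: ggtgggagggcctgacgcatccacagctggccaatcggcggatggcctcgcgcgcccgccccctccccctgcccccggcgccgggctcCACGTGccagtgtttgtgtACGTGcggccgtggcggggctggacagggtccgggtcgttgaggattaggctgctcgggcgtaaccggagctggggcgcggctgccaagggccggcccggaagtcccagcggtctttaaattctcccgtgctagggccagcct
EGLN1: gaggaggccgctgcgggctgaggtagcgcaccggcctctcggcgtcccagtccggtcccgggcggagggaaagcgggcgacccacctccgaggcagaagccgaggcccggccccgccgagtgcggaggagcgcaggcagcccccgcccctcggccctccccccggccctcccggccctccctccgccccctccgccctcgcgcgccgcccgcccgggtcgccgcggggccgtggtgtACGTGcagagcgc
P4HA1: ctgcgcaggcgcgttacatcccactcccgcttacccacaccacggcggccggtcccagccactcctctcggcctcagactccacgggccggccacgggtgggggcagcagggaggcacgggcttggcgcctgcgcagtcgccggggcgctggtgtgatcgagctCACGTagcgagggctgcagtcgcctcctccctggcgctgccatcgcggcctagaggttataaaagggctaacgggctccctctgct
ADM has 1 core, which starts 101 bases before the start site, EGLN1 has 1, 13 bases before it, and P4HA1 has 1 on the opposite strand, 86 bases before it. ANKRD37 has 3 matches, of which those starting 162 and 161 bases before the start site are the same CACGTG read on both strands, a sequence that is also an E-box, and the other starts 143 bases before it. The element thus stood in windows of genes that rose (ADM, ANKRD37) and of genes that fell (EGLN1, P4HA1). The 8 members with a promoter window have 9 windows, of which 7 had a core, as did 43.2% of all 35116 windows of this length. HIF1A, EPAS1 and CA9 had 1 core each, and EGLN3 had none in these 250 bases. HIF1A has 2 windows in the table, and its core is in the first. VHL and VEGFA had no promoter window in the sequences used here. A match is a string of letters and was not tested as a binding site.

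The arrays set limits that touch these genes. The lower quartile of all probe sets was 2.18 to 2.19 on the Ctrl and 2.40 to 2.43 in the CSF3 group, with an upper quartile of 5.63 against 5.37 to 5.40, so that dim probe sets tended to read higher and bright ones lower on the CSF3 arrays. The 3′ minus 5′ gap of the GAPDH control probe sets, which widens when RNA is degraded or labelling stops short, was 0.301 to 0.313 on the Ctrl and 0.679 to 0.684 on the CSF3 arrays, and that of ACTB was 1.32 to 1.38 and 1.92 to 1.96 (exact two-sided permutation p = 0.1 for each, the smallest that 3 against 3 arrays allow). The part of the 3′ minus 5′ gaps in the results below was not tested. With regard to the quartiles, the member genes were also refitted after quantile and cyclic loess normalization of the arrays. All 3 CSF3 probe sets rose in the CSF3 group, the brightest 2.18-fold (log2 change 1.12 ± 0.14, limma adjusted p = 0.000340) and the others by 1.77 ± 0.15 and 0.59 ± 0.13. Of 9 markers of colon epithelium listed for this report, KRT18 and KRT8 had mean log2 signals of 7.37 and 5.72, with CLDN4 between them, whereas EPCAM and CDH1, which define epithelial cells, had 3.46 and 2.22 on their brightest probe sets and VIL1 had 1.56, near the low end of the table. Of the 9, 5 rose and 2 fell (3 and 3 after quantile normalization), and some moved as far as the member genes, with changes of -1.32 for KRT8, 1.05 for CDH17 and 0.65 for CLDN4. The mean of the 5 fibroblast markers ran from 2.09 to 2.12 on the Ctrl and from 2.61 to 2.68 on the CSF3 arrays, with 4 of 5 called higher and 2 of 5 after quantile normalization. That of the 3 endothelial markers ran from 3.13 to 3.22 and from 3.70 to 3.78, with 3 of 3 called higher either way. Of all genes, 45.4% rose as deposited and 39.2% after quantile normalization. The mean of the 3 measured leukocyte markers ran from 4.90 to 5.05 and from 5.07 to 5.17, but joined unlike levels. CD68, at a mean log2 signal of 9.97, was called lower, CD3E, at 3.63, higher, and PTPRC, at 1.54, was not called. No marker has a value of 0 in this table, and the part of these markers in the results was not tested. In such bulk samples, fewer cells of a type and less RNA per cell cannot be told apart.

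ADM, which encodes adrenomedullin, a peptide that widens blood vessels, had the largest change of the 9 genes and ranked 70th of all genes by its rise. Its brightest probe set read 7.56, 7.60 and 7.60 on the Ctrl arrays and 8.75, 8.67 and 8.70 on the CSF3 arrays (log2). The lowest CSF3 array lay above the highest Ctrl array, and the group means differed 2.17-fold (log2 change 1.11 ± 0.06, limma adjusted p = 1.02e-05). The second probe set read 7.27, 7.22 and 7.23 on the Ctrl and 8.61, 8.60 and 8.55 on the CSF3 arrays, a change of 1.35 ± 0.06 (limma adjusted p = 7.70e-06). The third read 5.54 to 5.67 on the Ctrl and 6.31 to 6.34 on the CSF3 arrays, a change of 0.70 ± 0.06. All 3 probe sets therefore rose, without overlap, although their sizes differed. Of all single-gene probe sets, 36.7% were called higher, and the CSF3 arrays lay above the Ctrl arrays on 39.8%. With all single-gene probe sets divided into 10 equal classes by mean signal, the level class of the brightest 2 had a median change of -0.15 and that of the third -0.24. ADM kept its call in each of the 15 settings with no minimum size, with changes of its brightest probe set or gene mean from 1.05 to 1.30.

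VEGFA, the growth factor that drives the sprouting of blood vessels, rose on all 10 of its probe sets. The brightest read 7.83, 7.98 and 7.91 on the Ctrl arrays and 8.40, 8.26 and 8.27 on the CSF3 arrays, a 1.32-fold difference (log2 change 0.40 ± 0.07, limma adjusted p = 0.00183). The probe set with the largest change read 4.84, 4.75 and 4.77 on the Ctrl and 5.79, 5.69 and 5.60 on the CSF3 arrays, a change of 0.91 ± 0.07 (limma adjusted p = 3.90e-05). On each of the 10 the CSF3 arrays lay above the Ctrl arrays, as they did on 39.8% of all single-gene probe sets. The changes ranged from 0.17 to 0.91 with a median of 0.54, where the level classes that hold these probe sets had medians from -0.24 to 0.20. The smallest was that of the third brightest, which read 7.17 to 7.23 on the Ctrl and 7.36 to 7.38 on the CSF3 arrays (0.17 ± 0.05, limma adjusted p = 0.0259). This smallest call was lost when Ctrl replicate 1, 2 or 3 was left out, with adjusted p-values of 0.0557, 0.0883 and 0.0757, and that of the next to dimmest probe set (0.43 ± 0.13) when Ctrl replicate 2 or CSF3 replicate 2 was left out (adjusted p-values of 0.0542 and 0.0521) and in the linear model without moderated variances (0.0825). The probe sets share a target and are not replicates of the condition, and the names of 3 end in _s_at and of 5 in _x_at, which marks probes that can hybridise with more than 1 transcript. Of the 34 member probe sets 19 have such names, among them the brightest of ADM and of HIF1A.

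ANKRD37, which encodes a small ankyrin repeat protein and is a direct HIF-1 target, rose on 1 of its 2 probe sets. The bright one read 5.84, 5.82 and 5.80 on the Ctrl arrays and 6.52, 6.39 and 6.39 on the CSF3 arrays, a 1.52-fold difference (0.61 ± 0.06, limma adjusted p = 0.000131). The groups did not overlap, and the median change in that level class was -0.24. The dim one read 1.42, 1.66 and 1.52 on the Ctrl and 1.68, 1.82 and 1.58 on the CSF3 arrays, where the groups overlapped (0.16, 95% interval -0.049 to 0.37, limma adjusted p = 0.149). Its level class had a median change of 0.18, and its sign turned under quantile normalization (-0.034).

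P4HA1, the catalytic subunit of the enzyme that hydroxylates prolines of collagen, went the other way. Its single probe set, whose name ends in _s_at, read 7.45, 7.42 and 7.32 on the Ctrl arrays and 6.68, 6.62 and 6.56 on the CSF3 arrays. All CSF3 arrays lay below all Ctrl arrays, and the Ctrl mean was 1.72-fold higher (log2 change -0.78 ± 0.06, limma adjusted p = 5.61e-05). The median change in its level class was -0.15. Quantile normalization left a fall of 0.55, and the call held in each of the 15 settings with no minimum size.

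**Figure D2:**
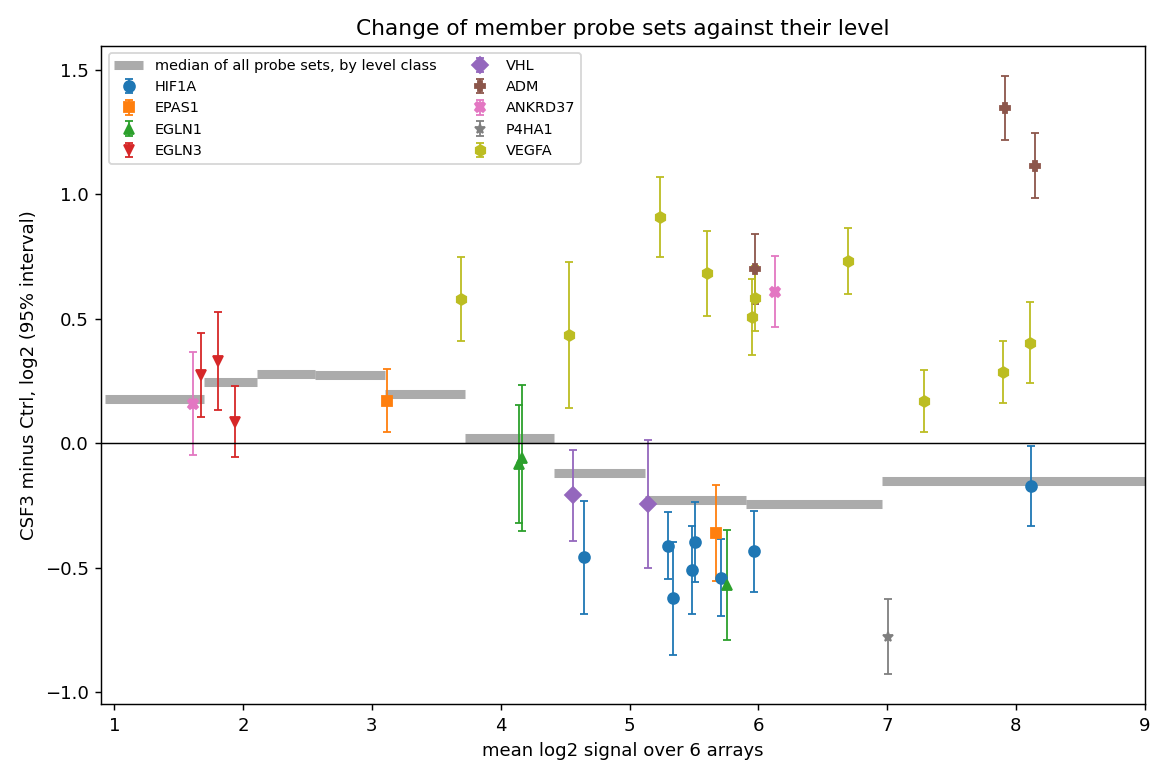
Log2 change from Ctrl to CSF3 (vertical axis, bars: 95% interval) of the 34 probe sets against their mean log2 signal over 6 arrays (horizontal axis, ending at 9), with grey bars at the median change of all single-gene probe sets in each of 10 level classes. ADM, VEGFA and the bright ANKRD37 probe set lie above the grey bars and P4HA1 below, while EGLN3, VHL, the dim EPAS1 and the dim ANKRD37 probe sets lie near them.

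HIF1A, the oxygen-regulated subunit of HIF-1, had 8 probe sets, and on each of them the CSF3 arrays lay below the Ctrl arrays, as on 30.9% of all single-gene probe sets. The brightest read 8.18, 8.22 and 8.21 on the Ctrl and 8.15, 7.97 and 7.98 on the CSF3 arrays, and CSF3 replicate 1 lay close to the Ctrl arrays. Its change was -0.17 ± 0.07, which did not pass over all probe sets (limma adjusted p = 0.0583) and passed narrowly with 1 probe set a gene (limma adjusted p = 0.0462). The other 7 fell, with changes from -0.62 to -0.40. The probe set with the largest fall read 5.64, 5.55 and 5.76 on the Ctrl and 4.91, 5.21 and 4.96 on the CSF3 arrays (-0.62 ± 0.10, limma adjusted p = 0.00104). The level classes that hold these 7 had medians from -0.24 to -0.12, so that a smaller fall was the median at those levels. After quantile normalization 5 of the 8 were called lower, with changes from -0.39 to -0.0076, where 25.1% of all single-gene probe sets were lower and 28% higher. After cyclic loess normalization 7 were called lower, with changes from -0.44 to 0.014, where 27.2% of all were lower. The brightest is the one that turned to 0.014, so its direction is not settled. With 1 probe set a gene, the call of HIF1A was lost when Ctrl replicate 1, 2 or 3 or CSF3 replicate 2 or 3 was left out, with adjusted p-values of 0.0880, 0.121, 0.112, 0.114 and 0.115.

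EPAS1, which encodes HIF-2α, had a probe set that fell and one that rose. The brighter read 5.73, 5.91 and 5.93 on the Ctrl and 5.38, 5.51 and 5.58 on the CSF3 arrays, without overlap (-0.36 ± 0.08, limma adjusted p = 0.00627). The dimmer read 3.05, 3.03 and 3.03 on the Ctrl and 3.17, 3.24 and 3.20 on the CSF3 arrays, also without overlap (0.17 ± 0.05, limma adjusted p = 0.0262). These changes lie beside medians of -0.23 and 0.20 in their level classes. After quantile normalization neither passed (-0.10, limma adjusted p = 0.340, and 0.023, limma adjusted p = 0.741). The call of the dimmer was also lost without Ctrl replicate 1, 2 or 3 or CSF3 replicate 2 (adjusted p-values of 0.0670, 0.0749, 0.0824 and 0.0541).

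EGLN1 encodes PHD2, the main oxygen sensor of the pathway, and is itself a HIF target. Its brightest probe set read 6.06, 6.02 and 6.06 on the Ctrl arrays and 5.65, 5.50 and 5.28 on the CSF3 arrays. The groups did not overlap, the CSF3 arrays were spread more widely than the Ctrl arrays, and the Ctrl mean was 1.48-fold higher (-0.57 ± 0.09, limma adjusted p = 0.00145). After quantile normalization it fell by 0.31 (limma adjusted p = 0.0294). The 2 dimmer probe sets overlapped between groups and did not pass, with changes of -0.061 (95% interval -0.35 to 0.23) and -0.084 (95% interval -0.32 to 0.15). Their intervals do not reach the fall of the brightest one, so the fall of EGLN1 rests on 1 probe set of 3. The names of all 3 end in _s_at or _x_at.

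EGLN3, which encodes the related hydroxylase PHD3 and is strongly induced by hypoxia in many cells, read near the low end of the table. Its 3 probe sets had Ctrl means of 1.90, 1.64 and 1.54 and CSF3 means of 1.98, 1.97 and 1.81. The groups overlapped on the first (0.087, 95% interval -0.057 to 0.23) and not on the other two, which were called higher (0.33 ± 0.08 and 0.27 ± 0.07, limma adjusted p = 0.0107 and 0.0125). The median change was 0.25 and 0.18 in the 2 level classes that hold them. After quantile normalization the 3 changes were -0.13, 0.12 and 0.078, with limma adjusted p-values of 0.101, 0.274 and 0.394. Without detection calls these signals are not known to lie above background, and no fold is given.

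VHL, the subunit of the ligase that recognises hydroxylated HIF-α, was measured by 2 probe sets. The brighter read 5.21, 5.27 and 5.31 on the Ctrl and 4.78, 5.04 and 5.23 on the CSF3 arrays, where CSF3 replicate 3 lay within the Ctrl range (-0.25, 95% interval -0.50 to 0.011, limma adjusted p = 0.0818). Without that array the brighter one was called (-0.35, limma adjusted p = 0.0144). The dimmer read 4.65, 4.72 and 4.63 on the Ctrl and 4.39, 4.37 and 4.61 on the CSF3 arrays, a fall of 0.21 ± 0.08 that passed narrowly (limma adjusted p = 0.0456). This call was lost without Ctrl replicate 1, 2 or 3 or CSF3 replicate 1 or 2 (adjusted p-values of 0.0960, 0.135, 0.0830, 0.112 and 0.117). The medians of their level classes were -0.23 and -0.12, and after quantile normalization the changes were -0.029 and -0.069, neither called.

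**Figure D3:**
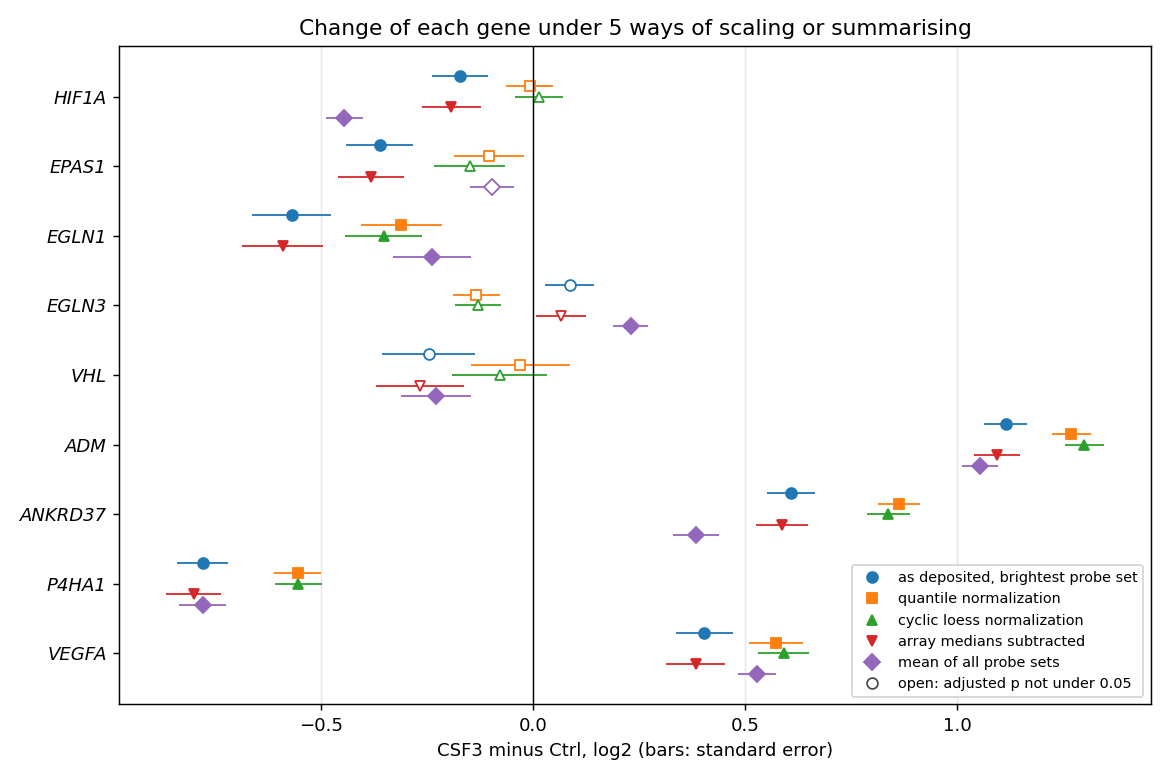
Log2 change from Ctrl to CSF3 (horizontal axis, bars: standard error) of the 9 measured genes under 5 ways of scaling the arrays or summarising probe sets, with filled symbols for an adjusted p under 0.05 and open ones otherwise. ADM, ANKRD37 and VEGFA stay to the right of 0 and P4HA1 and EGLN1 to the left with filled symbols throughout, while HIF1A and EGLN3 lie on both sides of 0 and EPAS1 and VHL have filled and open symbols on the left.

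The rest of the HIF machinery was mixed. Of 14 measured genes of partners, hydroxylases, ligase subunits and coactivators, 6 rose and 3 fell, while 5 were not called, where 45.4% of all genes rose and 27.1% fell, with a median change of 0.16 beside 0.16 for all genes. After quantile normalization 8 rose and 2 fell, against 39.2% and 20.1% of all genes, with a median of 0.33 beside 0.13. ARNT2, a relative of the partner subunit ARNT, fell furthest, by 1.48 ± 0.14 from 4.91 ± 0.16 to 3.43 ± 0.27 (SD, n = 3; limma adjusted p = 0.000123), but its probe sets ranged from -1.48 to 0.60 and 2 of them rose. HIF1AN, which encodes FIH, the asparagine hydroxylase that blocks HIF from its coactivators, fell by 0.65 ± 0.08 (limma adjusted p = 0.000436), and all 3 of its probe sets were called lower. CUL2, the scaffold of the VHL ligase, fell by 0.29 ± 0.05, a call lost after quantile normalization (-0.084, limma adjusted p = 0.187). ELOB and ELOC, the elongins that join VHL to CUL2, rose by 0.47 ± 0.05 and 0.38 ± 0.06, but the other probe set of ELOC fell. CITED2, which competes with HIF-1α for its coactivators, rose by 0.37 ± 0.07 on a probe set whose partner gave 0.38. ARNT itself changed by 0.21 (95% interval -0.040 to 0.45, limma adjusted p = 0.112).

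Other HIF targets outside glucose metabolism rose more often than they fell, as did all genes. Among 36 measured genes 22 rose and 9 fell, while 5 were not called, against 45.4% of all genes rising and 27.1% falling, with a median of 0.25 beside 0.16 for all genes. After quantile normalization 21 rose and 6 fell, against 39.2% and 20.1% of all genes, with a median of 0.27 beside 0.13. Several of those that rose as deposited were dim, among them VLDLR, PLOD2, STC2 and EPO, with mean log2 signals of 1.88, 2.24, 2.25 and 2.37. In the level classes that hold these, 50.2 and 54.6% of probe sets rose. The part of signal level in these counts was not tested. EFNA1, an ephrin ligand, rose by 1.01 ± 0.05 (limma adjusted p = 1.04e-05) on its brightest probe set, while its other one changed by 0.026 and was not called. HILPDA, which acts at lipid droplets, rose by 0.75 ± 0.08, and the nuclear receptor gene RORA by 0.55 ± 0.06, though 1 probe set of RORA fell by 1.22. PLOD1, a lysyl hydroxylase of collagen, fell by 0.58 ± 0.05, the transcription factor gene ZNF395 by 0.50 ± 0.06, and the mitophagy receptor gene BNIP3L by 0.41 ± 0.05. ZNF395 had 1 probe set that rose, while 5 of the 6 of BNIP3L fell and the other was not called. After quantile normalization the changes of PLOD1, ZNF395 and BNIP3L were smaller, at -0.36, -0.24 and -0.22, and still called.

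HIF targets of glucose uptake and glycolysis had a split that depended on the scaling of the arrays. Among 20 measured genes 2 rose and 8 fell, while 10 were not called, against 45.4% and 27.1% of all genes, with a median of -0.013 beside 0.16. After quantile normalization 9 rose and 6 fell, against 39.2% and 20.1% of all genes, with a median of 0.083 beside 0.13. These genes were bright, with mean log2 signals from 5.79 to 11.5. In the level classes that hold them, 18.5 to 21.4% of probe sets rose as deposited and 49.6 to 55.3% fell. The part of signal level in the counts of this list was not tested. PKM, pyruvate kinase, fell by 1.27 ± 0.08, GYS1, glycogen synthase, by 0.65 ± 0.07, and HK2, a hexokinase, by 0.44 ± 0.06. ALDOC, an aldolase, and PFKFB3, which makes an activator of phosphofructokinase, rose by 0.30 ± 0.05 and 0.30 ± 0.07. Their probe sets disagreed, since 3 of the 5 of ALDOC rose and 1 fell (-0.31 to 0.30), and 1 of the 4 of PFKFB3 rose (-0.16 to 0.30). HK2 fell on 1 of its 2 probe sets. The brightest probe set of PKM had the largest fall of its probe sets, which ranged from -1.27 to -0.097. After quantile normalization the changes of GYS1, HK2, ALDOC and PFKFB3 were -0.39, -0.29, 0.46 and 0.49.

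**Figure D4:**
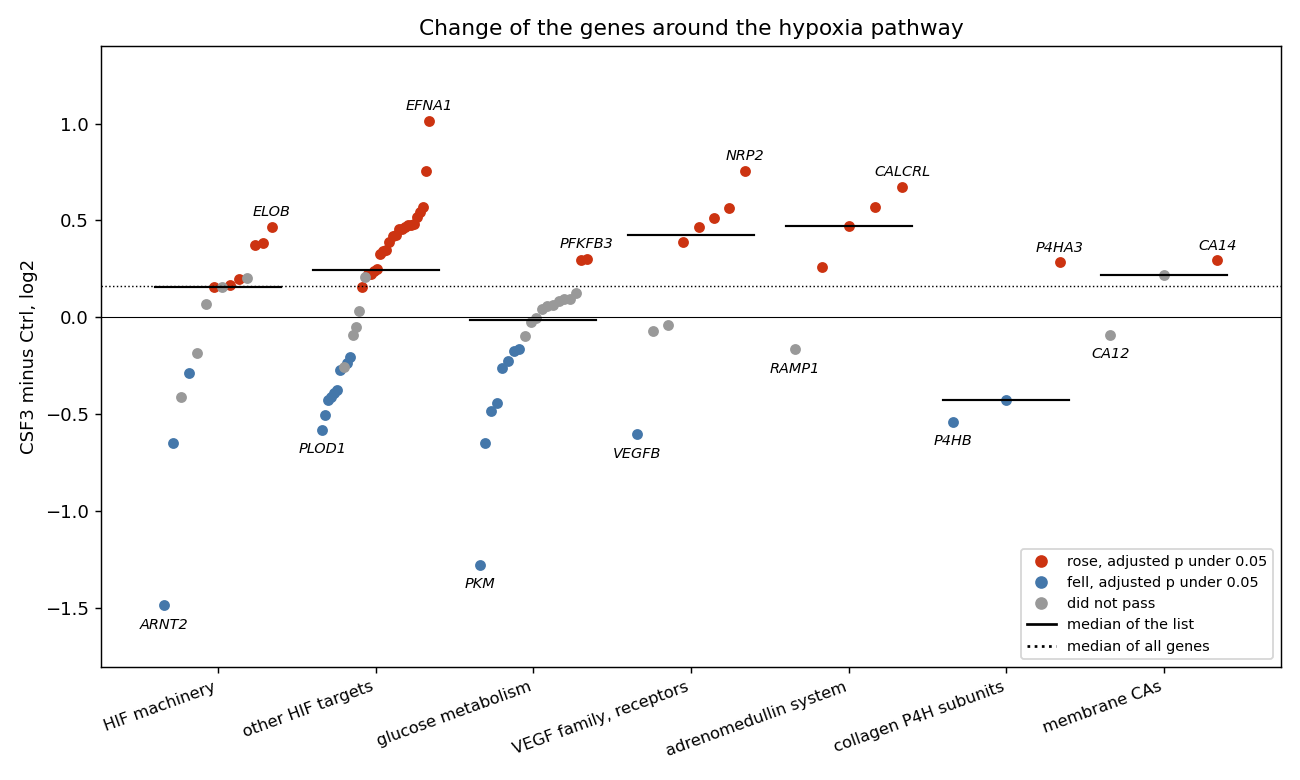
Log2 change from Ctrl to CSF3 (vertical axis) of each measured gene in 7 lists around the pathway, ordered by change within a list, in red where called higher, blue where called lower and grey where not called, with a line at each list's median and a dotted line at the median of all genes (0.16). ARNT2 and PKM lie lowest and EFNA1 highest among these genes. FLT1, P4HA2 and CA12 belong to the other HIF targets and also to a list of partners.

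The partners of the target genes were also examined. Among them, FLT1, P4HA2 and CA12 were already counted with the other HIF targets above, so these lists are not independent. Beside VEGFA, 5 of 8 measured VEGF ligands and receptors rose and 1 fell, while 2 were not called, where 45.4% of all genes rose and 27.1% fell. After quantile normalization 5 rose and 2 fell, against 39.2% and 20.1%. NRP2, a coreceptor, rose by 0.75 ± 0.06, KDR, the main signalling receptor of VEGFA, by 0.56 ± 0.08 and FLT1, its decoy-like receptor, by 0.46 ± 0.06, from Ctrl means of 3.15, 3.52 and 2.65. In the level classes that hold these dim genes 36.0 to 52.3% of probe sets rose, and 8 of 9 probe sets of NRP2, 2 of 2 of KDR and 3 of 5 of FLT1 did. The ligand gene VEGFB fell by 0.60 ± 0.06. After quantile normalization FLT1 rose by 0.29 and VEGFB fell by 0.40. Of the adrenomedullin system, ADM2, a related peptide, rose by 0.47 ± 0.06, the receptor gene CALCRL by 0.67 ± 0.10 and its partner RAMP3 by 0.57 ± 0.08. In the level classes that hold ADM2, CALCRL and RAMP3, 21.4, 52.3 and 45.4% of probe sets rose. RAMP2 rose by 0.26 ± 0.06 from 1.47, a call lost after quantile normalization (0.069, limma adjusted p = 0.374), and RAMP1 did not pass (-0.16, 95% interval -0.45 to 0.12). Beside P4HA1, its partner subunit P4HB and the alternative catalytic subunit P4HA2 fell by 0.54 ± 0.05 and 0.42 ± 0.07, and P4HA3 rose by 0.28 ± 0.06 from 1.51, a call lost after quantile normalization (0.083, limma adjusted p = 0.276). P4HA1, P4HB and P4HA2 lie in the brightest level class, in which 49.6% of probe sets fell. Of the membrane-bound carbonic anhydrases, the family of CA9, CA12 changed by -0.090 (95% interval -0.30 to 0.12) and CA4 by 0.22 (95% interval -0.049 to 0.48), neither called. The 5 probe sets of CA12 disagreed, with changes from -0.47 to 0.83, of which 1 was called higher and 3 lower. CA14 rose by 0.29 ± 0.05 from 2.70 on 1 of its 3 probe sets, a call lost after quantile normalization (0.11, limma adjusted p = 0.0858).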

How the data were processed

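Total RNA was labelled with biotin and hybridised, per the labels. The authors deposited 1 value per probe set and array, taken as log2 from the values (0.81 to 12.7); the sources used here give neither the base nor the background correction, summarisation or normalization, and folds assume base 2. Of 49395 probe sets, 44988 have 1 gene in the platform annotation and were used; 1832 with several genes, 2473 without one and 102 controls were left out. CSF3 minus Ctrl was tested in limma 3.58.1 (R 4.3.3; lmFit, eBayes), over all single-gene probe sets for the members and, with the brightest probe set of each of 18132 genes, for gene counts and the pathway lists, without filter or covariates, with Benjamini-Hochberg adjustment. The fit was tested on simulated data. No detection calls were used, and 6 arrays limit the precision.

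The members, lists and tests were chosen with earlier results of these data known. Named from a list are the 3 genes with the smallest p in each direction, or all genes of lists of up to 5. Outside this rule, VLDLR, PLOD2, STC2 and EPO were named as dim genes that rose. ARNT and the cell type markers were named after their values were seen. The alternatives were quantile or cyclic loess normalization, centring on array medians, a filter on the 30% dimmest features, the mean over a gene's probe sets, array weights, a trended and robust eBayes, Student's statistic without moderation, the replicate number as a block, a minimum change of 1, and leaving out each array.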

Additional observations from a re-analysis of the deposited data

How the results depend on the processing

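The calls of ADM, ANKRD37, VEGFA, P4HA1 and EGLN1, with 1 probe set a gene, held in each of the 15 settings without a minimum size of change, and whether HIF1A, EPAS1, EGLN3 and VHL were called varied; over the 9 genes, 115 of 134 such values kept their direction and side of the threshold. Of the member genes, 2 fell after quantile normalization and 2 after cyclic loess normalization, in place of 4 (21.4% of all genes fell under the latter), and 7 member probe sets fell after quantile normalization, in place of 11. With a change of at least 1, 117 genes rose and 611 fell, of which 1 and 0 were member genes, and 2 member probe sets rose and 0 fell by limma at that size. With the 30% dimmest genes left out, 4767 genes rose in place of 8227. The median change of all genes was 0.16 as deposited, 0.13 after quantile and 0.10 after cyclic loess normalization, and 0.00015 without the dimmest genes.

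The sign turned for HIF1A after cyclic loess normalization (0.014) and for EGLN3 after quantile (-0.13) and cyclic loess normalization (-0.13). In both genes only the brightest probe set, which stands for the gene, turned, and the others kept their sign. The sign also turned for the dimmer probe set of EPAS1 after cyclic loess normalization (-0.033). It turned for a dim probe set of EGLN1 after quantile normalization (0.015) and without CSF3 replicate 2 (-0.20 to 0.057 over the arrays left out), for the other without CSF3 replicate 3 (-0.19 to 0.019), and for the dim probe set of ANKRD37 after quantile (-0.034) and cyclic loess normalization (-0.049). The cause was not tested.

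The replicate numbers alone do not say whether same-numbered samples were paired. The deviations of same-numbered arrays from their group means correlated by 0.026, 0.015 and 0.026 across probe sets. These values show little shared variation by replicate number, but cannot settle whether samples were paired. With the replicate block, 8086 genes rose and 4782 fell, and 3 member genes rose and 4 fell; HIF1A lost its call and VHL gained one. Among member probe sets the block ended the calls of the dimmer ones of EPAS1 and VHL and of the VEGFA probe set with the smallest change (adjusted p = 0.0612, 0.0708 and 0.0620) and gave one to the brighter of VHL (0.0477). Nothing here separates a dim gene from one that is off.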
